A study of Zea mays with 6 samples.

Results

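In mature maize pollen, 41 of 39625 gene models were expressed at a clear level in every control library and lay lower in every library from heat-stressed plants. They were chosen by their own values: at least 5 TPM in each of 3 control libraries, and a lowest control value at least 1.5 times the highest value of 3 heat libraries. TPM is the read number of a gene divided by its length and scaled to one fixed total per library, so levels can be set side by side between genes. Of 3757 gene models with at least 5 TPM in each control, 43 met both conditions (1.14%), and 2 of these, the regulators GLK44 (GRMZM2G124540) and EREB179 (GRMZM2G129674), were set aside by name. All 6 libraries took part in the choice, so the gap between the groups is a description of these genes and was not tested.

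The plants were of the maize inbred line B73, grown in a greenhouse. Control plants had 25 °C by day and 21 °C by night. Heat plants had 35 °C by day and 25 °C by night for 48 h while their pollen was in tetrads, with humidity at 60% for both groups, and then kept in the greenhouse until pollen matured. The labels speak of biological replicates and do not say which plants gave which library, so the spread reported here is that between libraries.

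Tetrads are the joined products of male meiosis, still enclosed in callose inside the anther. Each later becomes a pollen grain with a large vegetative cell, which builds the pollen tube, and the sperm cells. A mature grain is dry and carries a store of transcripts made before shedding, which are used when the tube starts to grow. In RNA from whole pollen, fewer cells of a type and less RNA per cell cannot be told apart.

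Rebuilt read totals were 20978451 to 28640667 in controls and 19086616 to 19745003 in heat. The sample sheets put controls 1, 2 and 3 and heat replicate 3 on one set of lanes of the flow cell and heat replicates 1 and 2 on other lanes. Of 11 markers of mature pollen 10 were tested by limma, with 2 called higher, 1 lower and 7 not called in heat. Over all tested genes 13% were called higher and 7.15% lower. The summed level of the 11 was 45920 to 48250 TPM in controls and 46270 to 49110 TPM in heat, a sum that does not show the moves of single markers. The 4 tapetum and anther wall markers summed to 2.66 to 3.33 TPM in controls and 4.02 to 4.49 TPM in heat. Of these, ms32 was at 1.62 ± 0.22 TPM in controls and 3.17 ± 0.11 TPM in heat (SD, n = 3 each), while ms26 had its lower mean in heat, at 0.886 ± 0.262 TPM. The level of ms8 was 0.196 ± 0.131 TPM in controls and 0.162 ± 0.123 TPM in heat, and ocl4 was at 0 in every library. The 18 green tissue markers summed to 1.18 to 2.1 TPM in controls and 0.81 to 1.56 TPM in heat, with 5 of them at 0 in every library. Of 28 genes listed by name as endosperm markers, among them the LEAFY-like gene zfl1, 25 were at 0. Their sum reached at most 0.0822 TPM. The part of the tapetum and green tissue markers in the falls was not tested.

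As a group the 41 gene models went from a median of 11.0 TPM in controls to 4.47 TPM in heat. The level in heat was 23.1% to 60.4% of the control level, with a median of 41.8%. In 32 of them the control mean was over 2 times the heat mean, and in 12 it was over 3 times. Together they made up 0.0685%, 0.0646% and 0.0713% of all TPM in controls 1, 2 and 3, and 0.0328%, 0.0218% and 0.0266% in heat replicates 1, 2 and 3.

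**Figure D1:**
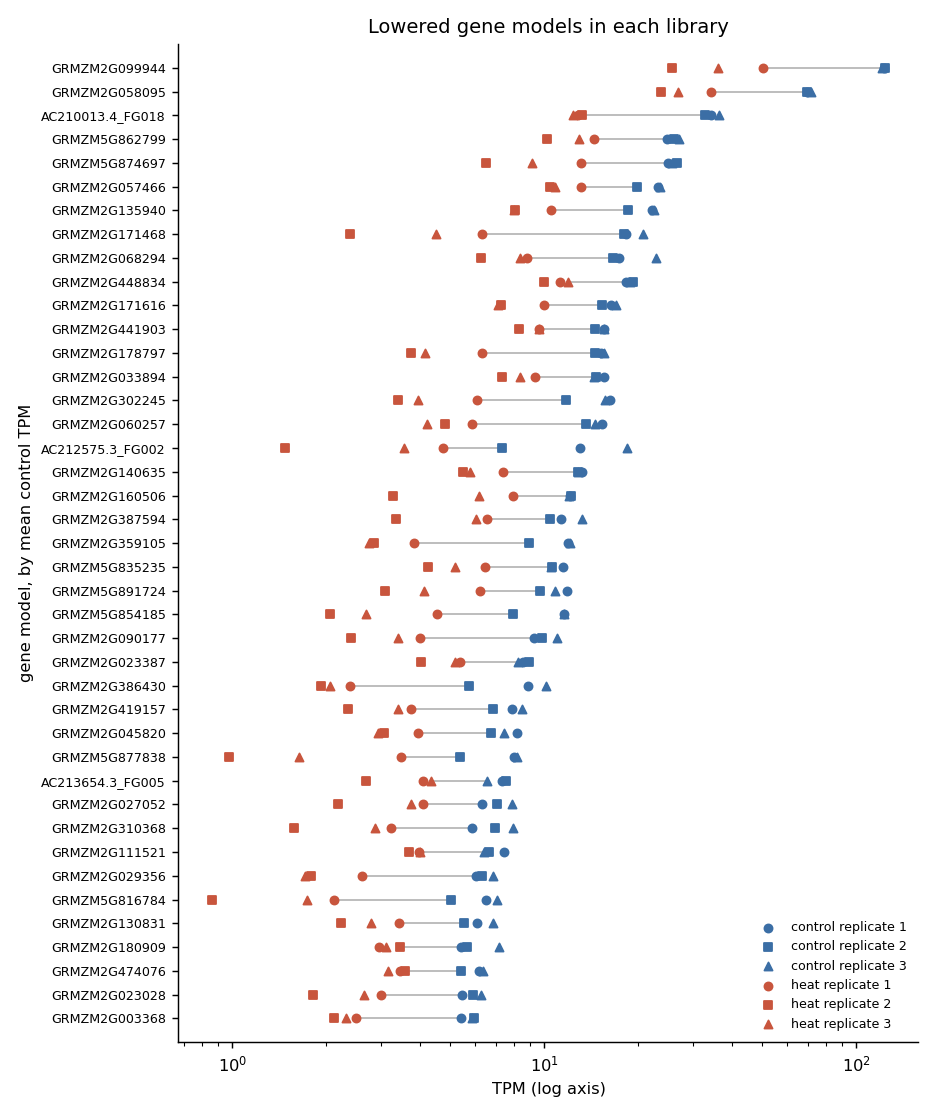
TPM of each of the 41 lowered gene models (rows, by mean control TPM) on a log axis, with blue for the 3 control libraries, red for the 3 heat libraries, and a grey line across the gap from the highest heat to the lowest control value. The top row, GRMZM2G099944, falls from above 121 TPM to 50.1 TPM or less, and in 34 of the rows the highest red point is the circle of heat replicate 1.

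None of the 41 carries a gene name in the RefSeq table of the later B73 assembly (Zm-B73-REFERENCE-NAM-5.0), against 392 of the 3757 well-expressed models (10.4%), since the named ones among the 43 had been set aside. They are therefore given by identifier, with no role. The table matched 27 of the 41 (65.9%), close to its 70.1% of the well-expressed models. It lists 26 of these as protein coding and 1, GRMZM2G023028, as a transcribed pseudogene. Their gene models were of ordinary length, with a median of 1751 bases against 1768 bases for well-expressed models. More than 1 RefSeq transcript was listed for 12 of the 27 (44.4%), against 36.5% of matched well-expressed models. Clone-based identifiers were held by 3 of the 41 (7.32%), against 3.75%.

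The most abundant of the lowered transcripts was GRMZM2G099944 (LOC100502086). It stood at 123.2, 123.6 and 121.2 TPM in controls 1, 2 and 3 and at 50.1, 25.6 and 36.2 TPM in heat replicates 1, 2 and 3, behind which lay 4011 to 5621 reads in controls and 798 to 1560 in heat. Its controls were nearly equal, while its heat libraries differed by 1.95 times among themselves. GRMZM2G058095 (LOC100191922) came next, with 69.5, 69.4 and 71.5 TPM in controls and 34.2, 23.6 and 26.8 TPM in heat. Both had the same order of heat libraries, with replicate 1 highest and replicate 2 lowest.

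The third in abundance, AC210013.4_FG018, behaved differently within the heat group. It had 34.3, 32.7 and 36.3 TPM in controls and 12.8, 13.2 and 12.4 TPM in heat, so its heat libraries lay within 1.07 times of each other, the narrowest spread among the 41. Its mean level in heat was 37.2% of control.

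Further down, GRMZM5G862799 had 24.7, 26.1 and 27.1 TPM in controls and 14.4, 10.2 and 12.9 TPM in heat. The short model GRMZM5G874697, of 547 bases, had similar controls, at 24.9, 26.7 and 25.6 TPM, but lower heat values, at 13.1, 6.49 and 9.12 TPM. For GRMZM2G057466 the controls read 23.2, 19.9 and 23.5 TPM and the heat libraries 13.1, 10.4 and 10.8 TPM. Heat replicate 1 was again the highest of the heat libraries in each of these.

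GRMZM2G135940 (LOC100278278) had 22.1, 18.5 and 22.5 TPM in controls and 10.5, 8.06 and 7.99 TPM in heat. Controls of GRMZM2G068294 (LOC100276883) stood at 17.4, 16.6 and 22.8 TPM and its heat libraries at 8.82, 6.27 and 8.36 TPM. GRMZM2G448834 (LOC107275237) was among the shallowest falls, with 18.3, 19.3 and 18.8 TPM in controls against 11.2, 9.95 and 11.9 TPM in heat. In that gene heat replicate 3, sequenced on the lanes of the controls, was the highest of the heat libraries.

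The widest gap between the groups was that of GRMZM2G171468 (LOC100280246). Its controls were 18.3, 18.0 and 20.8 TPM and its heat libraries 6.31, 2.39 and 4.51 TPM, a ratio of 2.85 between the lowest control and the highest heat value. The mean went from 19.0 ± 1.56 to 4.4 ± 1.96 TPM (SD, n = 3 each), and its log2 fold change of -1.96 (SE 0.21) on the log2(TPM + 1) scale was the lowest of the 41. That gene also had one of the wider heat spreads, 2.64 times from replicate 2 to replicate 1.

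A set of low transcripts fell to a similar share of control. GRMZM2G386430, whose model of 5770 bases was the longest, had 8.90, 5.72 and 10.1 TPM in controls and 2.38, 1.92 and 2.06 TPM in heat. GRMZM5G816784 (LOC100193003) had 6.52, 5.04 and 7.07 TPM in controls and 2.11, 0.861 and 1.73 TPM in heat, with 11 to 27 reads in the heat libraries. GRMZM2G359105 read 11.9, 8.93 and 12.1 TPM in controls and 3.81, 2.85 and 2.75 TPM in heat. In all of them the lowest control was replicate 2, and mean heat was 25.3% to 28.6% of mean control.

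Next in the size of the gap, GRMZM2G029356 (LOC100381835) had 6.06, 6.31 and 6.85 TPM in controls and 2.60, 1.79 and 1.71 TPM in heat. GRMZM2G060257 (LOC100283583) had 15.3, 13.6 and 14.6 TPM against 5.88, 4.81 and 4.21 TPM. Heat replicate 3 was the lowest heat library in both. In GRMZM2G090177 (LOC100273265) the controls were 9.29, 9.84 and 11.0 TPM and the heat libraries 4.01, 2.40 and 3.39 TPM, and in GRMZM2G178797 (LOC732757) they were 15.2, 14.5 and 15.5 TPM and 6.32, 3.75 and 4.16 TPM. Here replicate 2 was the lowest. With GRMZM2G003368 (LOC103638337), at 5.74 ± 0.29 TPM in controls and 2.31 ± 0.19 TPM in heat, and with those above, 12 gene models had a lowest control at least 2 times the highest heat value.

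The other lowered models had control means between 5.86 and 16.3 TPM. GRMZM2G302245 went from 14.5 ± 2.44 to 4.47 ± 1.43 TPM (SD, n = 3 each) and GRMZM5G854185 from 10.4 ± 2.10 to 3.09 ± 1.29 TPM, which is 30.7% and 29.7% of control. Deeper than the median of the group were also GRMZM2G310368, at 36.9% of control, GRMZM2G419157 at 40.8% and, at the median itself, GRMZM5G891724 at 41.8%. GRMZM2G023028 stood at 42.4%, GRMZM2G045820 at 44.5%, GRMZM2G130831 at 45.6% and GRMZM2G387594 at 45.7% of control. GRMZM2G027052, GRMZM2G140635, GRMZM5G835235 and GRMZM2G171616 lay between 47.2% and 49.9%. Milder falls were those of AC213654.3_FG005, GRMZM2G180909, GRMZM2G033894, GRMZM2G023387, GRMZM2G474076, GRMZM2G111521 and GRMZM2G441903, from 51.8% to 60.4%.

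At the edge of the choice, values just inside and just outside were alike. GRMZM2G441903, the last inside, had a ratio of 1.504 between its lowest control (14.5 TPM) and its highest heat value (9.65 TPM). GRMZM2G160506 followed at 1.506, with 12.1, 12.2 and 12 TPM in controls and 7.95, 3.28 and 6.20 TPM in heat, and GRMZM2G057466 at 1.518. Just outside lay GRMZM2G122983 at 1.495 (68.4 and 45.8 TPM), GRMZM2G118409 at 1.480 and GRMZM5G829840 at 1.475. By level, AC235546.1_FG004 missed the choice with a lowest control of 4.97 TPM and a ratio of 2.783, and GRMZM2G055037 with 4.93 TPM and a ratio of 3.173.

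Of the 5 genes left out by name, 2 met both conditions. GLK44 had 7.66, 7.50 and 7.12 TPM in controls and 3.27, 1.74 and 2.08 TPM in heat, and EREB179 had 63.6, 75.5 and 73.5 TPM and 37.7, 41.0 and 38.4 TPM. The kinase gene CIPK16 (GRMZM2G330049, ratio 1.127), the sugar transporter gene glct1 (GRMZM2G153704, 1.241) and a histone H4 model (GRMZM2G181153, 1.375) fell short of 1.5.

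The heat libraries were not equally low. Relative to the control mean, the median of the 41 was 0.50 in heat replicate 1, 0.41 in replicate 3 and 0.33 in replicate 2, while the median of all 3757 well-expressed models was 1.03, 1.03 and 1.08 in the same libraries. Replicate 1 held the highest heat value for 34 of the 41 and replicate 2 the lowest for 32. The full order, replicate 1 above 3 above 2, was seen in 28 of the 41 (68.3%), against 15.0% of all well-expressed models. The choice used the highest heat value of each gene, whichever library held it, and not the order. Replicates 1 and 2, at the ends of this order, shared their lanes, and the part of the lane in the order was not tested.

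**Figure D2:**
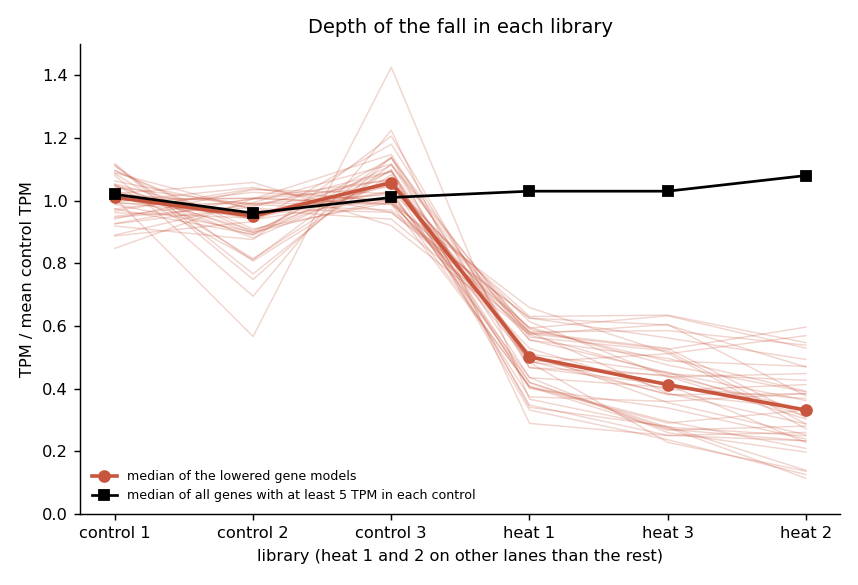
TPM divided by the mean control TPM of the gene, for each library, with a thin red line per lowered gene model, a thick red line at their median and a black line at the median of all 3757 models with at least 5 TPM in each control. The red median steps down from 0.50 to 0.41 to 0.33 through heat replicates 1, 3 and 2, while the black line stays between 0.96 and 1.08.

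The mirrored choice showed the opposite order. Under it, 158 of 3830 gene models with at least 5 TPM in each heat library had a lowest heat value at least 1.5 times the highest control value (4.13%). Of these 158, 88 (55.7%) rose from replicate 1 through 3 to 2, against 25.7% of the 3830. Replicate 1 above 3 above 2 was thus more common among lowered genes than among well-expressed genes as a whole. The reverse order was more common among raised genes than among the 3830. In these orders a chosen gene lay nearest to the controls in replicate 1 and farthest in replicate 2, which need not hold for other genes. The heat values that gave the order also took part in the choice, and the shares were not tested.

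The heat libraries differed more among themselves in some of the 41 than in others. They differed by a median of 1.52 times between the highest and the lowest, against 1.2 times for the 2257 well-expressed models with a mean control level under 30 TPM, a range that held 38 of the 41. Those models were matched on the control level, while the 41 were chosen for low heat values, which rest on fewer reads. Beside genes of like heat level, a comparison added after the values were seen, the difference was smaller. In the 34 lowered models with a mean heat level of 2 to 10 TPM the median was 1.53 times, against 1.27 times over 3479 gene models in that range. The control libraries of the 41 differed by a median of 1.16 times, against 1.17 times for the 2257 models under 30 TPM. The choice used the lowest control and the highest heat value of each gene, so the spreads of the 41 in both groups are not independent of it. In 9 gene models the heat spread was above 2 times. The largest was that of GRMZM5G877838, with 8.0, 5.37 and 8.17 TPM in controls and 3.47, 0.976 and 1.64 TPM in heat. Its lowest value rested on 9 reads, for which an exact Poisson 95% interval, covering counting error only, ran from 0.446 to 1.85 TPM. AC212575.3_FG002 was next, at 13.0, 7.31 and 18.4 TPM in controls and 4.73, 1.47 and 3.55 TPM in heat, and it had the widest control spread too, 2.52 times. At the other end, 7 gene models had heat libraries within 1.2 times of each other, among them AC210013.4_FG018, GRMZM2G111521 (3.97, 3.68 and 3.99 TPM) and GRMZM2G474076 (3.44, 3.57 and 3.15 TPM).

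Control replicate 2 was the lowest control for 23 of the 41, as it was for 56.9% of all well-expressed models. It lay under 0.8 times the lower of the other controls for 7 of the 41 (17.1%), against 6.97% of all. These were GRMZM5G854185, GRMZM2G359105, GRMZM5G816784, GRMZM2G302245, GRMZM5G877838, AC212575.3_FG002 and GRMZM2G386430. All 7 were among the deeper falls, with mean heat between 25.2% and 30.7% of mean control. Part of this follows from the choice, since a gene with a low control replicate 2 needed still lower heat values to be chosen.

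Because each library helped to choose the genes, the choice was repeated with 1 library left out, and the library left out was then read. The other group's libraries in each ratio took part in the choice, so part of the contrast with unselected models is built in. A gene chosen without a heat library that reaches 1.5 times in it is one of the 41 by definition, so only the position and the size of the ratio are given. Without heat replicate 3, 48 gene models were chosen on heat replicates 1 and 2 and the controls. In heat replicate 3 all 48 lay below their lowest control, against 28.9% of the 3757 well-expressed models. The median ratio of lowest control to heat replicate 3 was 2.04. Here the choice rested on the controls and the heat libraries of the other lanes, and the reading on the heat library that shared its lanes with the controls. The lowest control in each ratio had taken part in the choice, and the part of the lane in these ratios was not tested.

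Without heat replicate 2, 44 were chosen, with a median ratio of 2.74 in that library. All 44 were below their lowest control there, against 25.3% of all. Without heat replicate 1, 83 were chosen. All 83 were below their lowest control in replicate 1, against 26% of all, and the median ratio was 1.49. Leaving out control replicate 1 or 3 gave 46 genes each, with a median ratio to the highest heat value of 1.84 and 2.01. All 46 lay above every heat library in each case, against 29.4% of all models for replicate 1 and 27.7% for replicate 3. Without control replicate 2, 93 were chosen, with a median ratio of 1.5. In that library 89 of the 93 lay above every heat library and 4 did not, against 20.8% of all models above. Control replicate 2 and heat replicate 1 were thus the libraries whose removal moved the number chosen by over 1.5 times.

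**Figure D3:**
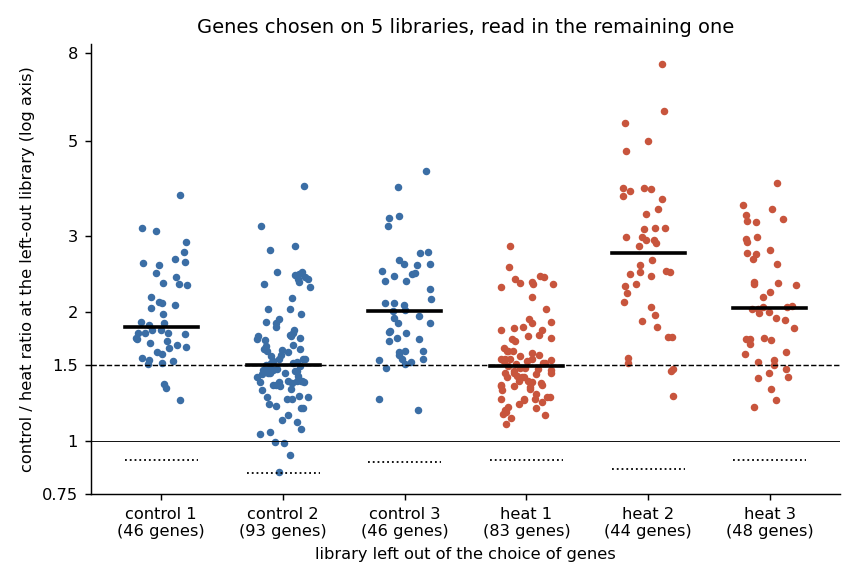
Each point is a gene model chosen on 5 libraries, placed at the ratio of lowest control to heat (red) or of control to highest heat (blue) in the library left out, on a log axis; thick bars are medians, dotted bars the median of all well-expressed models, and the dashed line is 1.5. Medians run from 1.49 for heat replicate 1 to 2.74 for heat replicate 2, and 4 points lie below 1, all for control replicate 2.

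In the model fitted across all tested genes (limma on log2(TPM + 1), adjusted over 8615 genes), 7.15% were called lower and 13% higher in heat. All 41 were among those called lower, which describes the choice, since it used the same libraries. Among the 3757 well-expressed models 8.06% were called lower, and 14.7% had every heat library below every control. With the lane set as a covariate 2.54% of tested genes were called lower and 5.05% higher, and 35 of the 41 were called lower. The 6 without a call there were GRMZM2G387594, AC212575.3_FG002, GRMZM2G023387, GRMZM2G027052, AC213654.3_FG005 and GRMZM2G160506. Their log2 fold changes with the lane lay between -1.53 and -0.61, and over all 41 the median was -1.08 with and without it. Heat replicates 1 and 2 were the only libraries on their lanes, so the fold change with the lane set heat replicate 3 alone against the controls. That library took part in the choice, so the calls and fold changes of the 41 with the lane describe the choice too. The part of the lane in the falls was not tested.

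The lowered genes belonged to the lower part of the expressed range. Including the 2 set aside by name, 1.7% of the 1001 models with a mean of 5 to 10 TPM in controls met the conditions, and 1.98% of the 910 between 10 and 20 TPM. The share was 0.712% between 20 and 50 TPM, 0.59% between 50 and 100 TPM and 0.417% between 100 and 200 TPM, which is GRMZM2G099944 alone. Of 565 models above 200 TPM none met them. Raised genes were found in each of these ranges of heat level, with the highest share, 7.37%, between 50 and 100 TPM, and 12 of 585 above 200 TPM. The lowest read number of a lowered model in any library ran from 9 to 798, with a median of 76, and the part of read number in these shares was not tested.

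**Figure D4:**
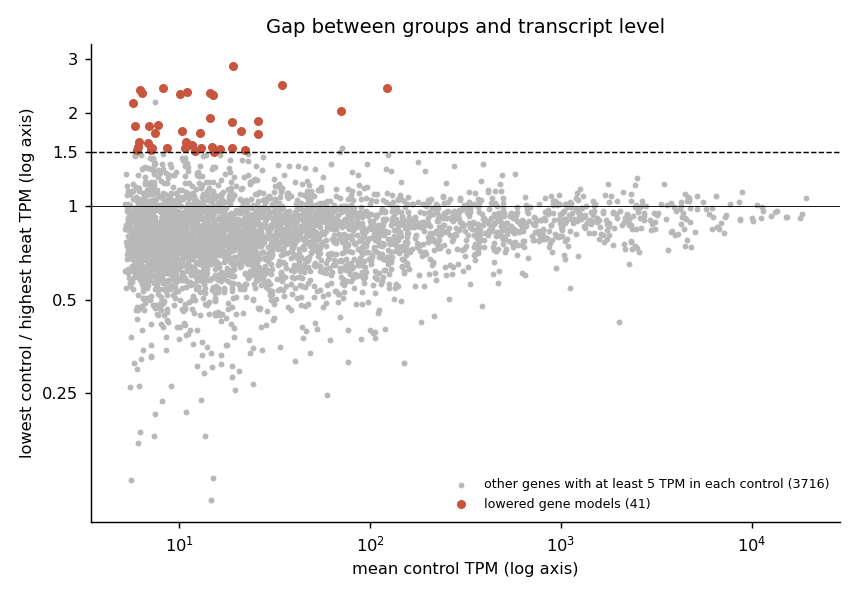
Ratio of the lowest control to the highest heat TPM against mean control TPM, both on log axes, for the 3757 gene models with at least 5 TPM in each control; red marks the 41 lowered gene models and the dashed line 1.5. The red points lie between 5.74 and 122.7 TPM, with none among the models above 200 TPM.

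A RefSeq gene was shared with another gene model of the deposited table in 3 cases. LOC100193003 joins GRMZM5G816784 to GRMZM2G173612, which was not chosen because its lowest control was under 5 TPM. GRMZM2G173612 had 7.27, 6.03 and 4.52 TPM in controls and 2.51, 1.32 and 1.89 TPM in heat, and its libraries did not overlap between groups. It passed the limma test (log2 fold change -1.26, SE 0.18, adjusted p = 0.000344), so both models of this gene were lower in heat, by a similar amount.

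For LOC100383601 the models parted. GRMZM2G111521 had 6.83 ± 0.53 TPM in controls and 3.88 ± 0.18 TPM in heat (SD, n = 3 each), while GRMZM2G111491 had 0.668, 0.557 and 0.651 TPM in controls and 0.708, 1.16 and 0.679 TPM in heat, below the level needed for the test. LOC100383601 also overlaps a long non-coding RNA gene, LOC118476986, in the later assembly, and reads of the overlap could belong to either. For LOC100216675 the second model, GRMZM5G881369, had 2 reads in all, both in heat replicate 3, so GRMZM5G891724 held nearly all reads of that gene. In the table GRMZM5G881369 is also matched to the adjacent RefSeq gene.

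No pair of the 27 placed gene models was adjacent in the gene order of the later assembly, and the closest had 192 genes between them. Among the direct neighbours of these 27, 16 gene models were tested, of which 3 were lower, 1 was higher and 12 were not called by limma, beside 7.15% lower over all tested genes. The lower ones were GRMZM2G417715, next to GRMZM5G854185, at 1.89 ± 0.45 TPM in controls and 0.602 ± 0.111 TPM in heat (SD, n = 3 each; limma log2 fold change of -0.84, SE 0.14, adjusted p = 0.00116), GRMZM2G142597, next to GRMZM2G441903 (-0.56, SE 0.13, adjusted p = 0.00895), and GRMZM2G160452, next to GRMZM2G160506 (-0.27, SE 0.07, adjusted p = 0.0177). GRMZM2G325131, next to GRMZM2G029356, was higher, with 38.6 ± 1.34 TPM in controls and 61.6 ± 6.24 TPM in heat (SD, n = 3 each; limma log2 fold change of 0.66, SE 0.09, adjusted p = 0.000228). The median log2 fold change of the 16 was -0.09, against 0.04 over all tested genes.

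Gene names outside the 41 gave what could be said of known pathways. In 20 lists of named genes, sorted by function, 239 genes were tested, of which 28 were lower (11.7%) and 51 higher (21.3%) by limma, beside 7.15% lower and 13% higher over all tested genes. None was among the 41, which carry no gene name and so could not be in these lists. Core histone and replication genes, which package and copy DNA, had 4 of 9 lower and 1 higher, with a median log2 fold change of -0.36. Calcium-dependent and other protein kinases had 5 of 22 lower and 3 higher, and cell wall genes 4 of 19 lower and 2 higher. Ribosome and translation genes had 0 of 44 lower and 8 higher. Redox genes had 0 of 13 lower and 3 higher, and bHLH and bZIP regulators 0 of 10 lower and 2 higher. Vesicle traffic and small GTPase genes had 0 of 9 lower and 3 higher, and ubiquitin and proteasome genes 0 of 6 lower and 1 higher. Heat shock proteins and factors had 2 of 8 lower and 3 higher, and lipid metabolism genes 2 of 8 lower and 0 higher. Hormone pathway genes had 1 of 18 lower and 7 higher, and ion and water channels 2 of 22 lower and 8 higher. The lists given here were not picked by a rule fixed beforehand, the remaining lists are not given, and no list was tested as a set.

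The number of lowered genes, and its size beside that of raised genes, moved with the scaling of the libraries, which also moved the number of models that reached 5 TPM in each control. On TPM as deposited 43 models were lowered and 158 raised, a ratio of 3.67 raised for each lowered. Scaling by median ratios gave 58 and 147 and quantile normalization 72 and 121, with 3817 models at 5 TPM under each. Leaving out the 100 most abundant genes gave 111 and 163, but it raised all other values, so that 5486 models reached 5 TPM in place of 3757. The scaling and the lower floor cannot be told apart there, and a floor of 2 TPM on the deposited values gave 87 lowered models in place of 41. The 41 themselves were little affected. All 41 were lowered also without the 100 most abundant genes, 40 after quantile normalization and 39 after median-ratio scaling, where AC213654.3_FG005 and GRMZM2G448834 fell short. The median heat level of the 41 was 0.418 of control as deposited and 0.395 to 0.409 under the other scalings.

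**Figure D5:**
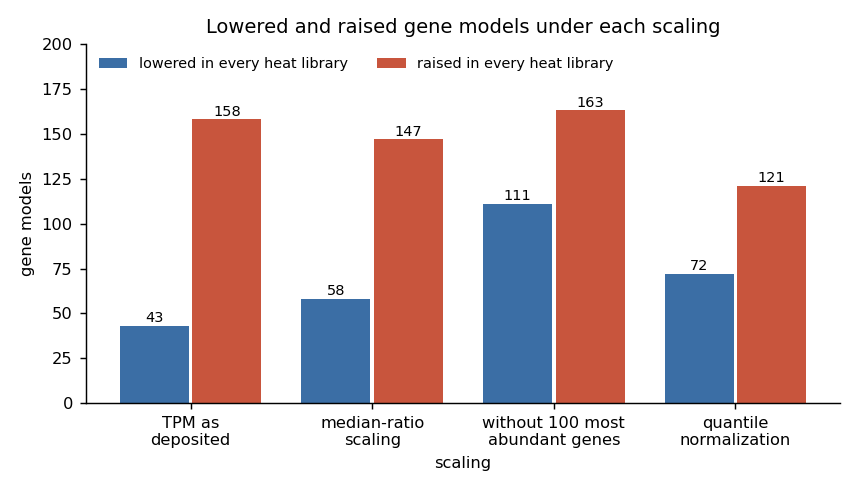
Number of gene models lowered (blue) or raised (red) in every heat library by at least 1.5 times, for TPM as deposited and after 3 other scalings, each count including genes set aside by name. Lowered models number 43, 58, 111 and 72 and raised models 158, 147, 163 and 121, so raised models are more numerous under each scaling while their excess shrinks.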

How the data were processed

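Transcripts of mature pollen were measured in 3 control and 3 heat libraries. The authors deposited TPM for 39625 gene models. STAR 2.5.2a, Trimmomatic 0.35, DESeq2, featureCounts, FastQC and the build B73 RefGen_v3 are listed, with no roles, per the submitters' processing notes. Strand setting and the handling of reads with several matches are not given in the sources used here, so models with near-identical copies may share reads. Whole reads and gene lengths were rebuilt from the TPM values for 24654 models above 0, within 0.01 reads; TPM remade from them differed by at most 1.6e-14 of the value, although a common divisor may remain in low counts. No pair of replicates was within sampling noise (lowest chi-square per degree of freedom 4.587).

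The lowered genes and the gene lists were chosen with earlier results of these data known. The 8615 genes that reached 1 TPM in 3 or more libraries were tested with limma 3.58.1 in R 4.3.3 on log2(TPM + 1), with an intensity trend, two-sided, Benjamini-Hochberg adjusted, threshold 0.05. The test was also run on reads simulated with a single fixed dispersion and no lane difference. That run was a check of the code and does not bear on the calls made here. Gene names came from RefSeq, which matched 19060 models and was used for names and gene order only. Named were the 10 widest gaps, the 10 highest control levels, the 3 models nearest each side of the ratio threshold, and models sharing a RefSeq gene; those named for their spread within a group were picked after their values were seen. Listed genes are given as counts. Protein and promoter features were not analysed here.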

Additional observations from a re-analysis of the deposited data

How the results depend on the processing

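The number of lowered genes moved with its thresholds, the scaling and single libraries. It was 121 at the lower ratio tried, 12 at a ratio of 2, 87 from 2 TPM and 20 from 10 TPM, against 41. It was 109 without the 100 most abundant genes, where more genes reached 5 TPM, 70 after quantile normalization and 101 with heat replicate 3 alone as the heat group; leaving out a single library gave 44 to 93, with 93 without control replicate 2 and 83 without heat replicate 1. Their share of TPM was 0.153% in controls and 0.0581% in heat without the 100 most abundant genes, against 0.0682% and 0.027%. The median ratio of heat to control ran from 0.382 to 0.461 without single libraries. Of 369 ratios of single genes under other settings 363 moved by less than 1 SD. None passed 1, which the choice itself fixed in advance wherever a single library was left out.

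Over all tested genes, 1123 were higher and 616 lower. With no filter 742 were higher, with the lane 435 were higher and 219 lower, and heat replicate 3 alone, a setting chosen after seeing the data, gave 595 higher and 399 lower. From 5 TPM 342 were lower, and after quantile normalization 956. Leaving out single libraries gave 813 to 1138 higher and 374 to 682 lower, with 374 without control replicate 1 and 391 without control replicate 3. Among listed genes, 51 were higher and 28 lower. These became 31 higher with no filter, 20 higher and 9 lower with the lane, 28 higher and 16 lower with heat replicate 3 alone, and 17 lower from 5 TPM; single libraries left out gave 33 to 48 higher, with 33 without heat replicate 2, and 22 to 31 lower. With the replicate number as a block, 1118 were higher and 667 lower. Same-numbered libraries deviated together with correlations of 0.119, 0.13 and -0.05, so the numbers were not taken as pairs.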
